A study of Drosophila melanogaster with 2 samples.

Results

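Intergenic peaks away from promoters were examined in a chromatin immunoprecipitation sequencing (ChIP-seq) data set of whole Drosophila melanogaster embryos. A peak of the main list was taken as a member when its summit lay inside no annotated gene and more than 500 bp from any transcription start site (TSS). The rule found 500 members among the 3810 peaks on the 7 main chromosomes (13.1%, 95% Wilson interval 12.1 to 14.2), and 3815 peaks were listed in all. The embryos were 0 to 24 h old and belonged to a transgenic line in which the CG31224 protein is joined to eGFP, and DNA was recovered with an antibody against GFP. The series has 1 group of 2 biological replicates. No ChIP without the fusion was analysed here, so the recovery of these sites without the tagged protein was not measured. A whole embryo pools all cell types, and the collection pools all embryonic ages. The design gives no comparison between conditions, so each difference below is a description, with its value in each replicate's own list where one is stated and with intervals that cover only the counting of peaks. No p-value is given, since peaks are not replicates.

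Intergenic DNA of the fly holds enhancers, silencers and insulators, which act on genes at a distance, as well as start sites that an annotation may lack. A transcription factor reaches such DNA through short sequences that it reads directly, through partner proteins already on the DNA, or through open chromatin. In ChIP-seq a peak is a stretch where recovered fragments pile up, and its summit is the base with the highest pile, usually close to the contact site. CG31224 is listed in RefSeq as an uncharacterised protein, and its DNA sequence preference is not described in the sources used here. The peaks carry the authors' signal value, a score per peak on a scale that the labels and description files leave unstated. It served only to rank and describe peaks.

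Most of the strongest intergenic summits held one recognisable sequence, and a few scored below the match threshold for it. The summit base with 50 bases on each side is shown for 6 of the strongest members to show both kinds (dm6, plus strand, from the RefSeq copy of the assembly). Capitals mark the best match to a 16-position weight matrix, and sequences without capitals have no position above the threshold, although the one before tutl holds the words CAGGCG and CTGNNCGCC counted below. The matrix was learned from the 150 strongest intronic summits, none of which lay within a window's width of a member.
tRNA:Phe-GAA-1-7 to tal-1A, chr3R:13804337-13804437: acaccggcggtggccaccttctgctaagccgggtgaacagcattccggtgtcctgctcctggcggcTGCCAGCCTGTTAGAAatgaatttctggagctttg
CheB38c to CG9331, chr2L:20821860-20821960: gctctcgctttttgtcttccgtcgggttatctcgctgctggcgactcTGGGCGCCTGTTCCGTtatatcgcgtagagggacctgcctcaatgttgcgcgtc
Gprk2 to Loxl1, chr3R:31458113-31458213: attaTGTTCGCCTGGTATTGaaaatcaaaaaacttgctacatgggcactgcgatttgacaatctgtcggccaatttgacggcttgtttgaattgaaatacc
Rilpl to futsch, chrX:1399199-1399299: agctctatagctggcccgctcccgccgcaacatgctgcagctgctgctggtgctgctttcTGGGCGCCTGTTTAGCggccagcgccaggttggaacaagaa
CG42828 to CG4393, chr3R:23374449-23374549: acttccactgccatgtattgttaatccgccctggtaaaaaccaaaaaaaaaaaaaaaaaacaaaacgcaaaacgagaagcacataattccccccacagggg
Art2 to tutl, chr2L:4282484-4282584: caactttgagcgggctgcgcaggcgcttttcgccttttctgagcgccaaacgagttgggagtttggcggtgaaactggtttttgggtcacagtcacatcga
The matches of 10 members, the strongest with a match among those whose sequence is shown or tallied here, line up as follows when turned to the strand of the matrix. Capitals here mark bases equal to the matrix's leading base at the 9 positions where that base has a frequency of at least 0.7.
tRNA:Phe-GAA-1-7 to tal-1A, chr3R:13804403-13804418, minus strand: ttctAaCAGGCtggCA
CheB38c to CG9331, chr2L:20821907-20821922, minus strand: acggAaCAGGCGccCA
slf to lncRNA:CR45297, chr2L:4810308-4810323, minus strand: cgttAaCAGGaGcgCA
Gprk2 to Loxl1, chr3R:31458117-31458132, minus strand: caatAcCAGGCGaaCA
Ptp4E to lncRNA:CR44833, chrX:4956203-4956218, minus strand: aaatAcCAGGCaaaCA
Rilpl to futsch, chrX:1399259-1399274, minus strand: gctaAaCAGGCGccCA
inc to Mur2B, chrX:1517914-1517929, minus strand: agacAcCAGGCcaaCA
tRNA:Phe-GAA-1-7 to tal-1A, chr3R:13803372-13803387, minus strand: ccggAgttGGCGctCA
lncRNA:CR44347 to CG42831, chr3L:10811015-10811030, plus strand: gttgActgGGCGcaCA
CG43245 to lncRNA:CR44544, chr3L:10775939-10775954, plus strand: tgagAaCAGGCGttCA
Of these sites 4 carry all 9 leading bases, 4 carry 8 and 2 carry 7. Of the 69 matched sites tallied in this way, 18 carry all 9, 22 carry 8, 24 carry 7 and 5 carry 6.

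The matrix reads, from position 5 on, A, a free position, CAGGCG, 2 free positions and CA, where a free position has no base at 0.7. Its firmest positions are the pair of G in the middle, each with a frequency of 0.967, followed by the final A at 0.946 and the A of CAGG at 0.902. It was built from 44 sites. A window was counted as matched when its best score on either strand exceeded the scores of 95% of the learning flanks. The flanks are windows of the same width centred 300 bp to each side of a summit.

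The matrix was found more often at members' summits than in their flanks, as it was at exonic summits, while promoter summits taken as a whole did not show this. A match lay within 50 bp of the summit in 86 of 500 members (17.2%, 14.1 to 20.8), against 60 of their 1000 flank windows (6.0%, 4.69 to 7.65). Of all chromosomal peaks 7.93% had a match at the summit. Promoter summits had 81 matches in 1823 (4.44%, 3.59 to 5.49), fewer than their flanks at 6.56%. Exonic summits had 23 in 132 (17.4%, 11.9 to 24.8), against 4.55% of their flanks, so the excess is not particular to intergenic DNA. Across the intergenic DNA that the rule allows, 4.28% of windows of this width had a match. In the list of replicate 1, with a matrix learned in that list alone, 20.7% of 324 members matched against 5.40% of flanks. In the list of replicate 2 the same step gave 18.8% of 308 members against 7.63% of flanks. The size of the learning set was chosen after its values were seen. The matrix first planned, from all intronic summits, matched 8.60% of members' summits against 7.30% of flanks, a difference of 1.30 points against 11.2 here. Learning sets of 75 to 500 strong intronic summits gave differences between 1.80 and 14.8 points. Intronic summits, at 8.27% against 4.91% in their flanks, include those used in learning and are not an independent value.

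The share with a match depended on signal. Among the 100 strongest members 48.0% matched (38.5 to 57.7), against 11.5% of their flanks. The next 4 sets of 100, in order of signal, had 14.0%, 7.0%, 6.0% and 11.0%, against flanks of 5.50%, 3.50%, 4.50% and 5.0%. In these 4 sets the intervals of summit and flank overlap. Among the 50 strongest members 34 matched (68.0%, 54.2 to 79.2), against 12% of flanks. That value was 62.0% in replicate 1 alone and 54.0% in replicate 2 alone. With a single member kept from each group of neighbours within 10 kb it was 46.0% against 7.0% of flanks. Thinning the groups in this way also brings weaker members into the 50, and the part of each change was not separated.

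**Figure D1:**
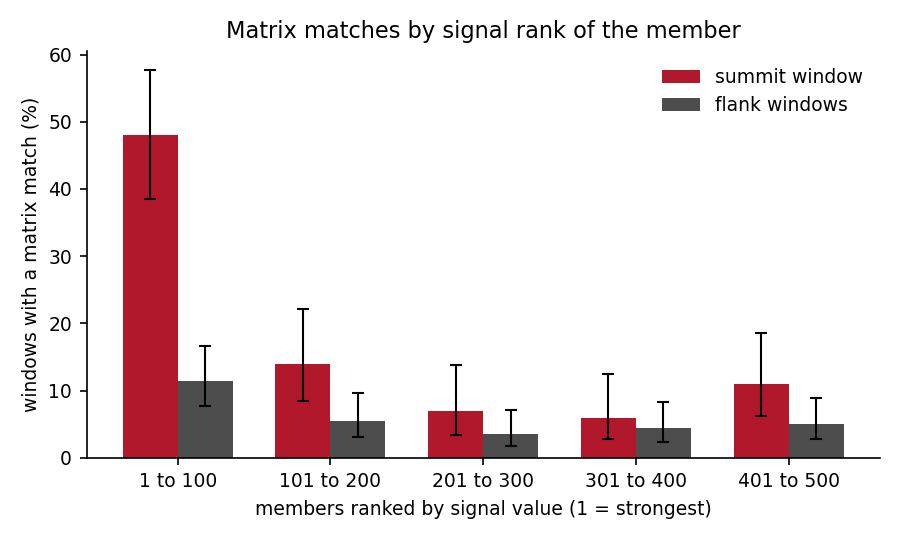
Share of windows with a matrix match (y axis, percent) for members in sets of 100 by signal rank (x axis), at the summit and in the flanks, with 95% Wilson intervals as bars. The strongest 100 stand at 48.0% at the summit and 11.5% in the flanks, and the 4 weaker sets lie between 6.0% and 14.0% at the summit.

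At equal rank in the main list, members matched more often than promoter summits. Among ranks 1 to 500, 40 of 71 members matched (56.3%, 44.8 to 67.3), against 19 of 278 promoter summits (6.83%, 4.42 to 10.4). Among ranks 501 to 1000 the shares were 16.4% of members (9.16 to 27.6) and 2.67% of promoter summits (1.30 to 5.41). Among ranks 1001 to 2000 they were 13.4% (8.53 to 20.4) and 4.27% (2.81 to 6.44). Among ranks 2001 to 3810 they were 7.88% (5.11 to 12) and 4.30% (3.09 to 5.95), and these intervals overlap. The 50 strongest promoter summits had 18.0% matched (9.77 to 30.8), against 7.0% of their flanks (3.43 to 13.7), and the 100 strongest 12% against 4.50%.

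Matches in strong members gathered at the summit itself. Matches were counted up to 280 bp to each side in bins of 20 bp, and a member can hold several. The 100 strongest members had 15, 12, 14 and 7 matches in the 4 bins from 40 bp before to 39 bp after the summit. Bins farther out held between 0 and 6. The other 400 members had 6, 14, 6 and 12 in the same 4 central bins and between 2 and 11 in bins beyond 60 bp.

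Members with a match differed from the other members in signal, in repeatability and in the balance of the replicates. These measures are tied to signal, and the matrix was learned from summits chosen for high signal. Their median signal was 195, against 81.5 without a match, and 65 of 86 (75.6%, 65.5 to 83.4) were in the lists of both replicates, against 178 of 414 (43.0%, 38.3 to 47.8). The signal of matched members also leaned to replicate 1. On the log2 scale, replicate 1 over replicate 2 had a median of 0.41 (SD 0.49, n = 82) in members with a match and 0.07 (SD 0.61, n = 372) in those without. Within the 100 strongest members, 46 of 48 with a match were higher in replicate 1, against 25 of 52 without. Strong promoter summits had the same lean, with 11 of 12 matched summits higher in replicate 1 against 22 of 88 unmatched ones. What sets the replicates apart was not tested. GC content in the summit window, which includes the GC-rich match itself, averaged 49.1% with a match and 37.6% without, and the part that GC content has in the match share was not tested.

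**Figure D2:**
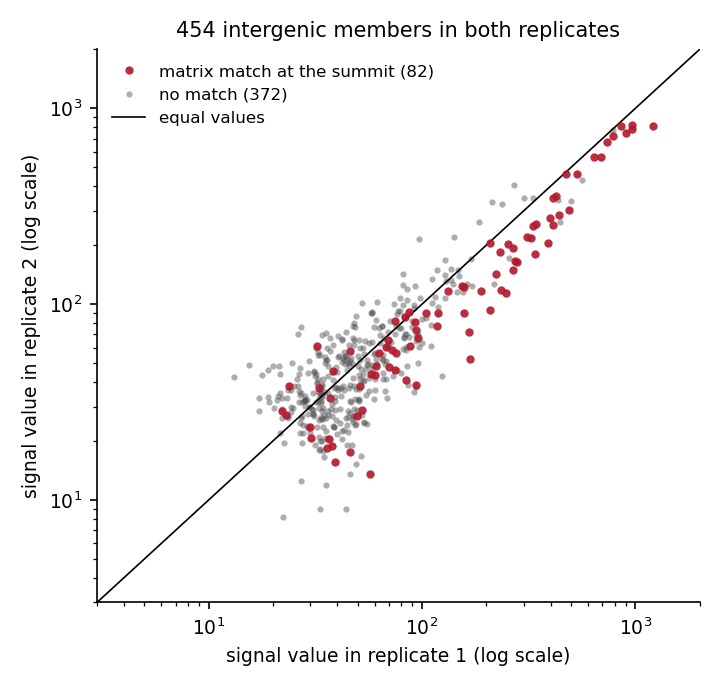
Signal value in replicate 2 (y axis, log scale) against replicate 1 (x axis, log scale) for the 454 members found in both ranked lists, as 82 points with a matrix match and 372 without, and a line of equal values. Most matched points lie below the line, and unmatched points spread to both sides.

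Short words taken from the matrix or its edge were also counted directly. The first base of CTGNNCGCC lies just past the end of the matrix. CTGNNCGCC, searched on both strands, occurs in 39 members (7.80%) at the summit, against 1.5% of their flanks and 0.671% of all intergenic windows that the rule allows. It occurs in 20 of the 50 strongest members. CAGGCG, the middle of the matrix, occurs in 34 members (6.80%), against 3.8% of flanks and 2.79% of windows, and in 19 of the 50 strongest. GGCGC overlaps both and occurs in 73 members (14.6%), against 9.50% of flanks and 8.07% of windows. These 3 words were chosen after their values were seen.

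Of 34 listed sequence elements of known fly factors and core promoters, none differed between members' summits and flanks by as many points as the matrix of the 150 strongest intronic summits. That matrix was learned from these data and chosen after its values were seen, so the comparison is not on equal terms. The matrix first planned differed by 1.30 points, less than the initiator (4.1) and BEAF-32 (2.8) words and more than the Ets word (1.0). The 5 highest differences were the initiator word TCAGT (18.4% of summits against 14.3% of flanks), the TATA box TATAAA (15.2% against 11.4%), the Su(Hw) insulator core GCATAC (6.4% against 2.90%), the BEAF-32 insulator word CGATA (11.4% against 8.60%) and the Ets word CCGGAA (3.0% against 2.00%). For the Su(Hw) core, promoter summits had 2.63% against 2.96% in flanks, while for CGATA they had 19.3% against 12.8%. For TATAAA promoter summits had 22.1% against 11.3% and intronic summits 19.8% against 11.9%, both larger excesses than in members. For TCAGT promoter summits had 16.7% against 16.6%, and for CCGGAA 2.47% against 3.57%. The lowest differences were the E-box CANNTG (37.6% against 42.6%), the GAGA factor word GAGAG (11.0% against 14.3%), the Pleiohomeotic core GCCAT (15.4% against 18.5%), the CA repeat CACACACA (2.20% against 4.20%) and, tied at -1.7 points, the homeodomain word TAATTA (5.80% against 7.50%) and the Tramtrack core AGGAT (9.80% against 11.5%). The DREF word TATCGATA, in 2.80% of promoter summits, occurred in 0.40% of members. A word in a window is not a bound site.

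Among all 6-letter words, those with the largest excess at members' summits were mostly made of A and T. AAAAAT stood in 30% of summits against 22.2% of flanks, AAACTA in 13.6% against 6.30%, AAAGTA in 14.6% against 7.70% and ATATAA in 15.2% against 8.80%. Promoter summits had the same words, in this order, at 36.0%, 13.1%, 11.7% and 19.3%. Their flanks had 21.4%, 7.19%, 7.46% and 9.82%, so an excess of these words is not particular to members. The only word of the leading 10 with as many G and C as A and T was AACAGG, part of the matrix. It stood in 9.0% of summits and 3.8% of flanks. Base composition split along the same line. The summit windows of the 50 strongest members had 47.3% GC, against 42.1% in their flanks, while the 400 members after the strongest 100 had 38.5% against 42.7%. Summit minus flank was -2.83 points over all members, against -7.84 in promoter summits and -6.07 in intronic summits. The matrix learned from all intronic summits in place of the strongest was itself rich in A and T.

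The strongest members lay near genes of varied function. The highest, on 2R between the non-coding lncRNA:CR44366 and CG6191, had a signal value of 2106, with 1203 in replicate 1 and 810 in replicate 2. The next, at chr3R:13804223-13804720, stood between tRNA:Phe-GAA-1-7 and tal-1A, part of the tarsal-less locus that encodes small peptides of leg and epidermal development, with 1790 in the main list, 968 in replicate 1 and 822 in replicate 2. The member between CheB38c and CG9331 had 1741, with 958 and 787 in replicates 1 and 2. Each of the 20 strongest members was in the list of both replicates and had the higher value in replicate 1, and 15 of the 20 had a matrix match.

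Of the 20 strongest, 8 lay between convergent genes, past the 3' ends of both neighbours, as did 26.6% of all members. The member between Gprk2, a G protein-coupled receptor kinase, and Loxl1, a lysyl oxidase relative, lay 290 bp from the first and 217 bp from the second, with a signal value of 1650 (904 and 749 in replicates 1 and 2). That between blw, which encodes a subunit of ATP synthase, and CycB, the mitotic cyclin B, had 1423 (734 and 668). The member between Ptp4E, a receptor tyrosine phosphatase, and lncRNA:CR44833 had 1527 (788 and 723). Other members of the 20 lay in longer gaps. A pair beside Rilpl, 1912 and 2393 bp from it and 9820 and 9339 bp from futsch, the neuronal microtubule-associated protein gene, had 1259 and 754 in the main list. The member between slf and lncRNA:CR45297 reached 1680 (851 and 816), and that 342 bp past inc, a Cullin-3 adaptor needed for normal sleep, reached 1200 (639 and 563).

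The 5 members of these 20 without a match were also in both replicate lists. The member between CG42828 and CG4393 had 1579, with 787 in replicate 1 and 771 in replicate 2. That 18 bp from lncRNA:CR44339, whose nearest coding TSS is that of the Polycomb group gene Psc, had 988 (559 and 430). Those at CG31221, tutl and CG42831 had 837, 782 and 705, and the one at tutl, an immunoglobulin superfamily gene of axons and dendrites, lay 614 bp upstream of its TSS.

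Many members had another member nearby. Another member lay within 10 kb of 251 of the 500 (50.2%, 45.8 to 54.6), in 84 groups. In replicate 1 alone this share was 48.5%, and in replicate 2 alone 48.1%. Grouped members had a median signal of 102 and 57.8% of them were in both replicate lists, against 79.7 and 39.4% of the 249 members that stood alone. Other peaks counted too, 162 members had a peak of any class within 1 kb. Neither count was made for the other peak classes, so whether grouping is particular to members was not tested. Some neighbours are summits of one peak, since 23 members (4.6%) shared their interval with another summit, against 1.13% of all peaks.

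The largest group held 16 members over 19137 bp of 2R. Of these, 14 filled the single gap of 9826 bp between CG13334 and CG42807, with signal values from 28.9 to 733, and the remaining 2 were the strongest member and its neighbour of 1152 before CG6191. These 16 summits lie in 9 peak intervals, and presence in a list is scored by interval. By interval 15 were in both replicate lists, 11 had a summit of their own within 100 bp in both ranked lists, and 10 had a match. The second group held 13 members within 8513 bp of 3R, 11 of them in the gap of 14838 bp between tRNA:Phe-GAA-1-7 and tal-1A. Its values ran from 4.46 to 1790, all 13, in 10 intervals, overlapped both replicate lists, 11 had a summit of their own in both ranked lists, and 7 had a match. The third group, of 10 members over 27805 bp of 3L around lncRNA:CR44363 and CG7560, held weaker peaks. Its highest value was 132, 4 members were in both lists and none had a match. Members of similar rank matched in 6.0% to 14.0% of cases, so no match among 10 is close to that background. A group on X beside Rilpl had 4 members within 1644 bp, all 4 with a match.

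**Figure D3:**
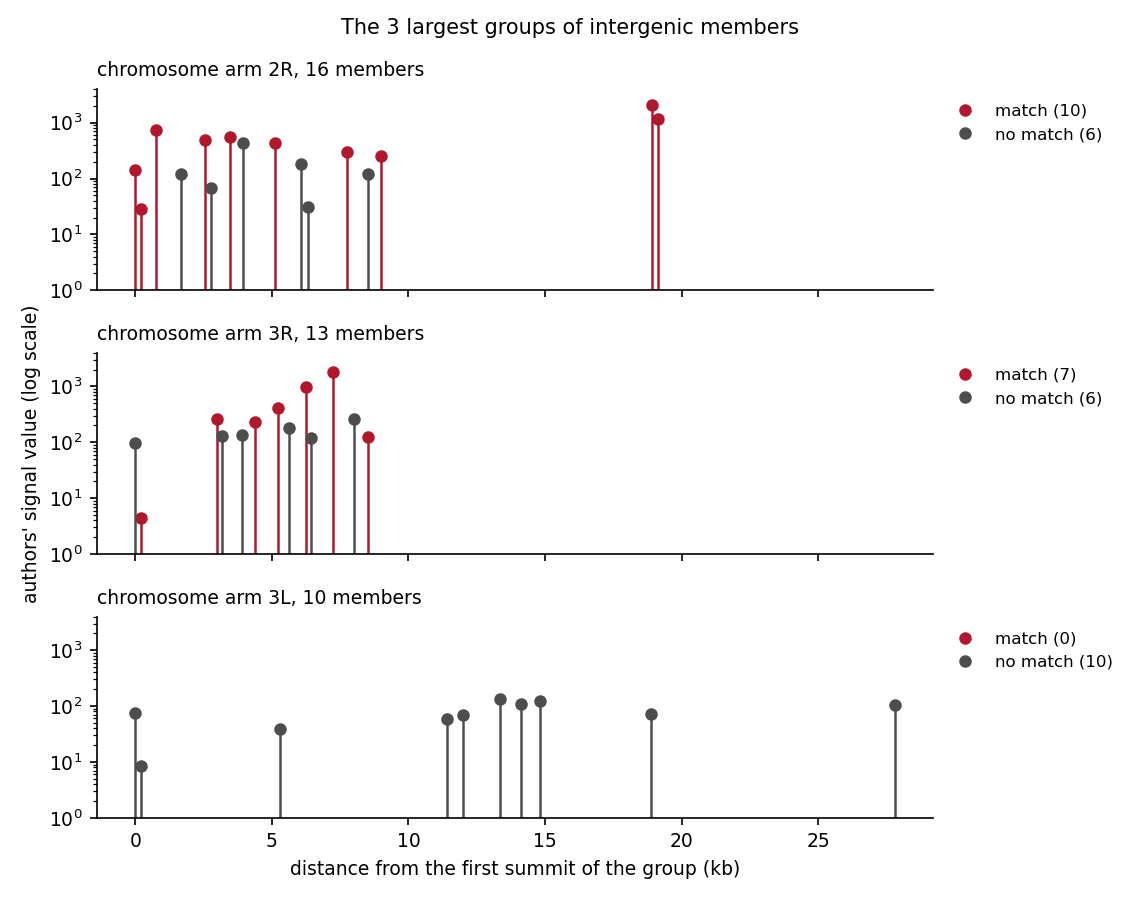
Signal value (y axis, log scale) of each member of the 3 largest groups, by distance from the first summit of the group (x axis, kb), coloured by matrix match. The groups on 2R and 3R reach 2106 and 1790 and mix matched with unmatched members, and the group on 3L stays at or below 132 with no match.

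Members thinned out with distance from the nearest TSS. Their distance to the nearest TSS ran from 502 to 59612 bp, with a median of 2734 and quartiles of 1239 and 5570. Per Mb of DNA that the rule allows, there were 33.1 members at 501 to 1000 bp, 21.7 at 1001 to 2000 bp, 17.6 at 2001 to 5000 bp, 11.7 at 5001 to 10000 bp, 8.08 at 10001 to 20000 bp and 1.60 farther out. The last bin held 1.94 per Mb without the Y chromosome, which had no member. Both replicate lists had the same order, ending at 0.748 in replicate 1 and 1.07 in replicate 2. Annotated transposable elements make up 4.17% of the allowed DNA in the nearest bin and 15.2% in the farthest, and their part in the decline was not tested. Median signal varied less, at 89.1, 99.8, 86.4, 87.6, 71.2 and 77.0 from the nearest bin to the farthest, with the 2 lowest values in the 2 farthest bins.

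**Figure D4:**
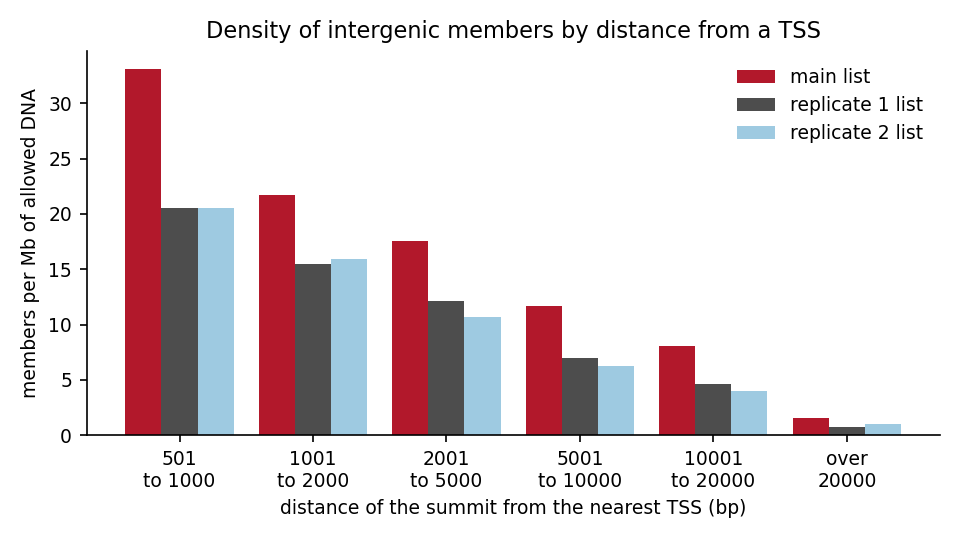
Members per Mb of allowed intergenic DNA (y axis) by distance of the summit from the nearest TSS (x axis, bp), for the main list and the list of each replicate. Density declines from bin to bin in all 3 lists, from 33.1 to 1.60 per Mb in the main list.

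Gaps between divergent genes, where both neighbours start, held 18.4 members per Mb, against 11.6 between genes on the same strand and 13.2 between convergent genes, where both neighbours end. In number these were 140, 227 and 133 members. Upstream of the nearest TSS lay 303 members (13.5 per Mb) and downstream 197 (12.2 per Mb). Short gaps of up to 5000 bp held 34.2 members per Mb and gaps over 50000 bp held 1.70.

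The start site nearest to a member was often that of a non-coding RNA gene. It belonged to a coding gene for 340 members (68.0%, 63.8 to 71.9), against 86.6% of all chromosomal peaks. It belonged to one of 93 long non-coding RNA genes for 132 members (26.4%, 22.7 to 30.4), against 10% of all peaks, and to a transfer RNA gene for 20 members (4.0%, 2.60 to 6.10), against 1.10%. Exonic summits, also over 500 bp from any TSS, had shares like those of members for coding (65.9%) and long non-coding RNA genes (28.8% of 132). None of them was nearest to a transfer RNA gene. Intronic summits had 86.2% and 9.52% for coding and long non-coding RNA genes. The classes differ in what the rule allows near them, since members cannot lie at a start site or inside a gene. Of the 20 at transfer RNA genes, 11 belonged to the tRNA:Phe-GAA-1-7 gap and 3 to tRNA:Ile-TAT-1-2, whose highest value was 337. Medians were alike for members near coding genes (86.7) and long non-coding RNA genes (86.5). The 5 members nearest to microRNA genes had 140 at mir-2281, 108 at mir-1013, 107 at mir-ban (bantam), 76.9 at mir-219 and 60.7 at mir-308.

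Developmental and chromatin genes were present among the neighbours in small numbers. By nearest coding TSS, 6 members were assigned to segmentation genes (1.2%, against 0.499% of all peaks), among them slp2 (188), the head gap gene ems (147 and 114) and the Hedgehog receptor gene ptc (88.8). Hox genes had 3 (0.600%, against 0.341%), Antp (95.8) and Dfd (51.5 and 8.24), 12833 to 27185 bp from the start site. Signalling genes had 4 (0.8%, against 0.525%), the JAK/STAT ligand gene upd1 (145), the Wnt receptor gene fz (124), ptc and Wnt4 (72.9). Genes of neuronal fate and axon guidance had 2 (0.4%, against 0.551%), robo2 (95) and esg (58.6). Muscle and mesoderm genes had 3 (0.600%, against 0.394%), zfh1 (108), Act57B (85.3) and how (81.2). The Polycomb and Trithorax groups had 3, Psc (988), ph-d (234) and Su(z)2 (50), or 0.600% of members against 0.709% of all peaks.

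Among the other listed gene families, chemoreceptor and odorant-binding protein genes had 8 members (1.60%, 0.813 to 3.13, against 0.341% of all peaks), led by Or67c (287) and Gr89a (133). These families make up 1.65% of coding genes. Cytochrome P450 genes had 4 (0.8%, against 0.315% of all peaks), led by Cyp6v1 (102), and cuticle protein genes had 1 (0.2%, against 0.0787%), at Cpr76Ba (204). Cytoplasmic ribosomal protein genes had 1, RpS23 (60.7), or 0.20% of members against 1.52% of all peaks. DNA replication genes and mitochondrial ribosomal protein genes had none, which allows up to 0.600% of members (3 counts of 500), against 0.184% and 0.315% of all peaks.

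In overall strength members resembled the other classes. Their median signal was 88.9 (quartiles 63.1 and 146), against 96.7 for promoter summits and 83.9 for intronic summits. In the list of replicate 1 the medians were 65.1 for members and 65.3 for promoter summits, and in that of replicate 2 they were 61.9 and 64.0. The 90th percentile differed more. In the main list and the lists of replicates 1 and 2 it stood at 300.2, 269 and 218 for members. For promoter summits it stood at 286, 183 and 186. The highest values went the other way, at 2106, 1203 and 822 for members against 4550, 2446 and 2126 for promoter summits. Members were 22 of the 100 strongest peaks (22.0%, 15.0 to 31.1) and 49 of the next 400 (12.3%, 9.39 to 15.8).

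**Figure D5:**
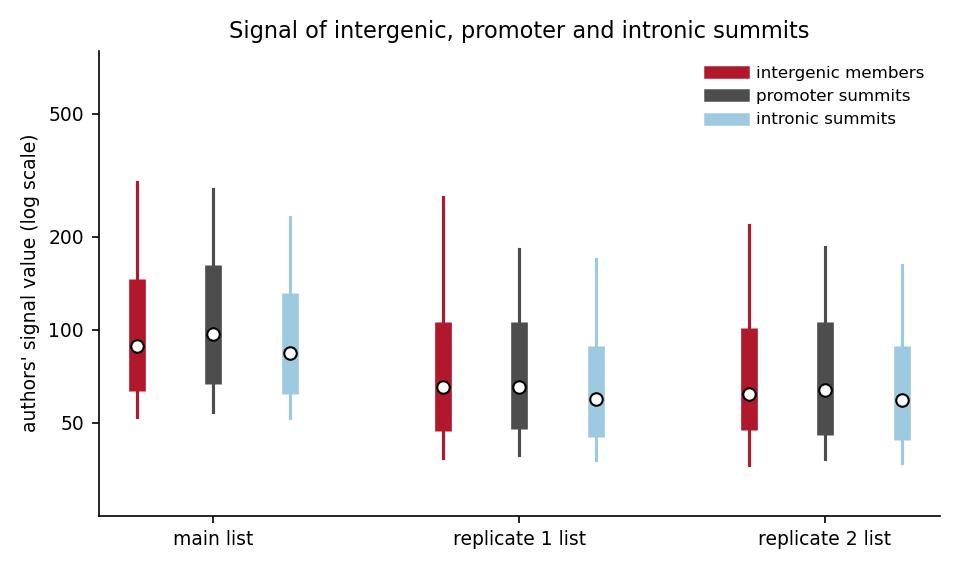
Authors' signal value (y axis, log scale) of intergenic members, promoter summits and intronic summits in the main list and the list of each replicate; circles are medians, thick bars quartiles and thin lines the 10th to 90th percentiles. Medians of members minus promoter summits are -7.78, -0.134 and -2.08 in the 3 lists, and the upper line of members reaches higher.

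The share of members found in both replicates was close to that of all peaks. Of the 500, 243 overlapped a peak in the lists of both replicates (48.6%, 44.2 to 53.0), against 48.9% of all chromosomal peaks. The conservative list held a peak with the same interval and summit for 84.8% of members and 84.9% of all peaks. Peaks with shifted bounds or summits count as absent here. Repeatability followed rank, with 99, 93, 38, 5 and 8 members in both lists from the strongest set of 100 to the weakest. In the longer ranked lists 454 members had a summit within 100 bp in each replicate. Across these 454 peaks, which share their libraries, signal in replicates 1 and 2 had a Spearman correlation of 0.746 and a Pearson correlation of 0.86 on the log2 scale. On that scale, the ratio of replicate 1 over replicate 2 had a median of 0.17 (SD 0.61) in members and -0.12 (SD 0.56) in promoter summits. It exceeded 2-fold in favour of replicate 1 in 33 of the 454 members and of replicate 2 in 13. Over all chromosomal peaks with both values these counts were 144 and 135 of 3493, and over promoter summits 45 and 65 of 1676.

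In the list of replicate 1 only were 70 members (14.0%, against 12.2% of all peaks), and in that of replicate 2 only 63 (12.6%, against 16.9%). The 5 strongest members found in the list of a single replicate were all in that of replicate 1. They lay near lncRNA:CR45293 (224, with 167 and 52.6 in the ranked lists of replicates 1 and 2), lncRNA:CR43437 on chromosome 4 (163), CG13334 (120), Dgk (119, with 79.7 and 44.2) and CG11000 (112, with 73.2 and 43.0). The member at lncRNA:CR43437 is the only one on chromosome 4 and had no summit within 100 bp in replicate 2. The 5 weakest members, with values from 2.78 to 4.6, lay near rux, tRNA:Phe-GAA-1-6, lncRNA:CR45726, Imp and CG12483, and 4 of them had no summit within 100 bp in either ranked list. Some of these weak summits count as present in a replicate because their interval overlaps a stronger peak there.

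The members farthest from any start site were modest peaks. That at chr3R:3906173-3906508, 59612 bp from the TSS of CG41099, had a signal value of 64.4 and was in neither replicate list. The one in the gap between bab1 and bab2, a pair of transcription factor genes of limb and abdomen, had 59.6 and lay 37715 bp from the TSS of bab2. The strongest of the 5 farthest, 33880 bp from the TSS of the POU factor gene vvl, had 151, with 82.0 and 67.9 in replicates 1 and 2, and was in both lists. At the inner limit, the members 502 bp from gem, 508 bp from SsRbeta and 514 bp from CG42566 had 70.1, 86.3 and 96.9. The summits left out at 497 bp from Sqor, 496 bp from lncRNA:CR43334 and 492 bp from PHDP had 87.8, 104 and 97.1.

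By arm, members numbered 140 on 3L, 112 on 2L, 110 on 3R, 77 on 2R, 60 on X, 1 on chromosome 4 and 0 on Y. Relative to the length of DNA allowed, 2L held 1.29 times and 2R 0.798 times the number predicted. An annotated transposable element held 3 members (0.6%), against 6 of all 3810 peaks (0.157%). In bins of distance from a TSS, such elements make up 4.17% to 15.2% of the allowed DNA, a larger share than that of members. The reason was not tested. On X, 1 member (0.2%) had most of its 31-base words more than once in the assembly, against 5 of all peaks (0.131%).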

How the data were processed

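The 8 deposited peak lists cover whole-embryo anti-GFP ChIP-seq of 1 group of 2 replicates, with chromatin sonicated to 200 to 800 bp per the labels. Coordinates are dm6 per the deposited description files, and are 1-based here. The sources used here name no aligner or peak caller, and the control was not analysed. Each peak's signal value is the authors' deposited score, with no stated scale. Thresholded lists have a deposited IDR score of at least 830, an irreproducible discovery rate of at most 1%. The deposited ranked lists also hold the −log10 of the IDR, which entered no comparison. No counts were analysed here, so depth is unknown. 16 columns of the series-level ranked lists without a sample name were not used.

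The gene annotation was Ensembl release 115 (BDGP6.54), taken without 5889 transposable element and 481 mature microRNA entries. Replicate values came from each replicate's ranked list (nearest summit within 100 bp), and presence from 1 bp overlap with its thresholded list. The matrix grew from the 8-letter word with the largest excess at intronic summits, with 4 bases added to each side, in up to 10 rounds. Steps were tested on simulated peaks. Python 3.11.15, numpy 2.4.6, pandas 2.3.3 and scipy 1.17.1 were used.

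Named members were the 20 strongest, the 5 farthest from a TSS, the 3 largest groups, the 5 strongest in a single replicate list, the 5 weakest and 3 on each side of the 500 bp limit. Genes of the 12 neighbour lists and microRNA neighbours are named beside these. Matched sites were printed for the 10 strongest matched members outside 2R and tallied for all matched members outside 2R, a rule set after the values were seen. Members, lists, elements and words were chosen with earlier results of these data known, and the matrix of the 150 strongest intronic summits replaced that of all intronic summits after both had been seen. Alternatives changed the list, the rule, the annotation, the overlap, the window and the match threshold.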

Additional observations from a re-analysis of the deposited data

How the results depend on the processing

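No paired analysis was possible because the series has 1 group. The 500 members became 636 with a TSS distance of 250 bp, 405 with 1000 bp, 612 with protein-coding genes alone and 490 in the conservative list, and 248 above the median signal. The replicate lists alone held 308 to 324 members. The share of peaks that are members moved to 16.7% with 250 bp, 10.6% with 1000 bp and 16.1% with protein-coding genes alone, and was 11.8% to 13.5% in the replicate lists. The difference of median signal, members minus promoter summits, was -7.78 and kept its sign throughout. It was -6.26 with 250 bp, -5.98 with protein-coding genes alone and -2.08 to -0.134 in the replicate lists. The share in both replicate lists moved to 89.1% above the median signal and 42.2% where 50% of the member interval had to overlap. Density moved to 6.42 per Mb above the median signal and 7.98 to 8.39 in the replicate lists. The share with a neighbouring member moved to 31.6% within 2 kb, 56.4% within 20 kb and 43.1% above the median signal, and was 48.1% to 48.5% in the replicate lists.

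The excess of the matrix learned from all intronic summits was 1.30 points. It moved to 3.10 and 4.0 with windows of 25 and 100 bp to each side, 3.90 with a 90% threshold, 2.67 and 3.95 with 250 and 1000 bp, 1.73 in the conservative list and 2.11 to 2.47 in the replicate lists. For the matrix of the 150 strongest intronic summits the excess was 11.2 points. Alternatives chosen after seeing the data gave 4.6 and 8.10 with windows of 25 and 100 bp, 2.70 with a 99% threshold (3.20% of summits against 0.50% of flanks), 7.23 with 250 bp, and 11.2 to 15.3 in the replicate lists. Learning on the 75, 100, 200, 300 and 500 strongest intronic summits gave 7.90, 8.10, 14.8, 3.0 and 1.80. The excess therefore depends on how many of the strong summits were used in learning. The share of matches in the 50 strongest members was 46.0% with 1 member per group, against 68.0% with all members, and 54.0% to 62.0% in the replicate lists. Read depth is unknown, so no limit from depth can be given for weak members, and with 2 replicates no spread beyond their range can be given.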
